A study of Homo sapiens with 4 samples.

Results

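Semaphorins and vascular endothelial growth factors (VEGFs) reach the cell through neuropilins, plexins and the VEGF receptor KDR, and the H3K27ac peaks around 10 genes of this system were examined in triple-negative breast cancer cells. The 10 genes, of 19970 protein-coding genes, were NRP1, NRP2, PLXNA1, PLXNA2, PLXND1 and KDR on the receptor side and SEMA3A, SEMA3C, VEGFA and VEGFC on the ligand side. NRP1 was chosen on the readout itself, because distal peaks along the gene stitched into a very long cluster in the Hs578T lists, and the other 9 genes were chosen by name as its partners. The coverage of NRP1 is therefore a description, and no test was made on it.

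H3K27ac is a histone acetylation found at active promoters and enhancers, and it was mapped by chromatin immunoprecipitation and sequencing (ChIP-seq). The cells were MDA-MB-231 and Hs578T, established human lines of triple-negative breast cancer, a disease without hormone receptors or HER2 amplification, with 2 lists of peaks per line. Cells of both lines had been starved of serum for 8 h, had received 10 ng/ml of TWEAK (the ligand of the receptor Fn14) for 48 h, and were fixed 72 h after its removal, per the labels. All 4 lists share this treatment, so neither TWEAK nor its withdrawal could be compared with untreated cells here.

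Neuropilins are co-receptors with short cytoplasmic tails that bind class 3 semaphorins as well as VEGFs. For semaphorins they signal through plexins, transmembrane receptors that act on small GTPases and the cytoskeleton, whereas for VEGFs they assist tyrosine kinase receptors such as KDR. The system is best known from axon guidance and the growth of blood and lymph vessels, and neuropilins are also found on many carcinoma cells.

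The list labelled MDA-MB-231 replicate 1 stood apart from the rest. It held 209 peaks on chromosomes 1 to 22 and X, against 43353 in MDA-MB-231 replicate 2, 46330 in Hs578T replicate 1 and 44920 in Hs578T replicate 2. None of the 209 peaks lay in any of the 10 gene windows, which span 3.49 Mb together (0.115% of these chromosomes), so that 0.241 peaks would be found there by length alone. Its zeros therefore say nothing about the 10 genes, and values below refer to the 3 large lists unless that list is named. The bases covered in 2 lists, as a share of those covered in either (Jaccard index), came over the windows to 0.777 between the large MDA-MB-231 list and Hs578T replicate 1. The same index was 0.787 between that list and Hs578T replicate 2, and 0.779 between the Hs578T lists. In the same order of pairs, the NRP1 window gave 0.716, 0.760 and 0.717, the other 9 windows 0.807, 0.800 and 0.811, and all chromosomes 0.770, 0.759 and 0.780. The Hs578T lists were closest to each other in the last 2 of these sets and not at NRP1, and the indices within a set differed little, so the lists are called by their labels without a statement on the line.

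The start site of 9 of the 10 genes was marked in every large list. A gene counted as marked when a peak overlapped the 1 kb on either side of the start of its Ensembl canonical transcript. By this rule 9 of 10 genes were marked in MDA-MB-231 replicate 2, where 58.1% of all protein-coding genes were. Equally, 9 of 10 were marked in Hs578T replicate 1 (58.2% of all genes) and 9 of 10 in Hs578T replicate 2 (56.4% of all genes). In MDA-MB-231 replicate 1 it was 0 of 10, where 0.0601% of all genes were marked. KDR was the gene without a start-site peak in all 4 lists. With 10 genes, 1 of them chosen on its peaks, the count is a description of these genes.

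The marked genes differed in how tall and how wide their start-site peaks were. Fold enrichment, the signal of a peak over the local background of its own library, is not comparable in size between lists. It is therefore given with its percentile among the start-site peaks of the same list, 11595, 11629 and 11264 marked genes in MDA-MB-231 replicate 2, Hs578T replicate 1 and Hs578T replicate 2. Values below follow this order of lists. By fold enrichment the order NRP1, VEGFC, SEMA3C, PLXNA1 headed the 9 genes in each of the 3 lists.

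**Figure D1:**
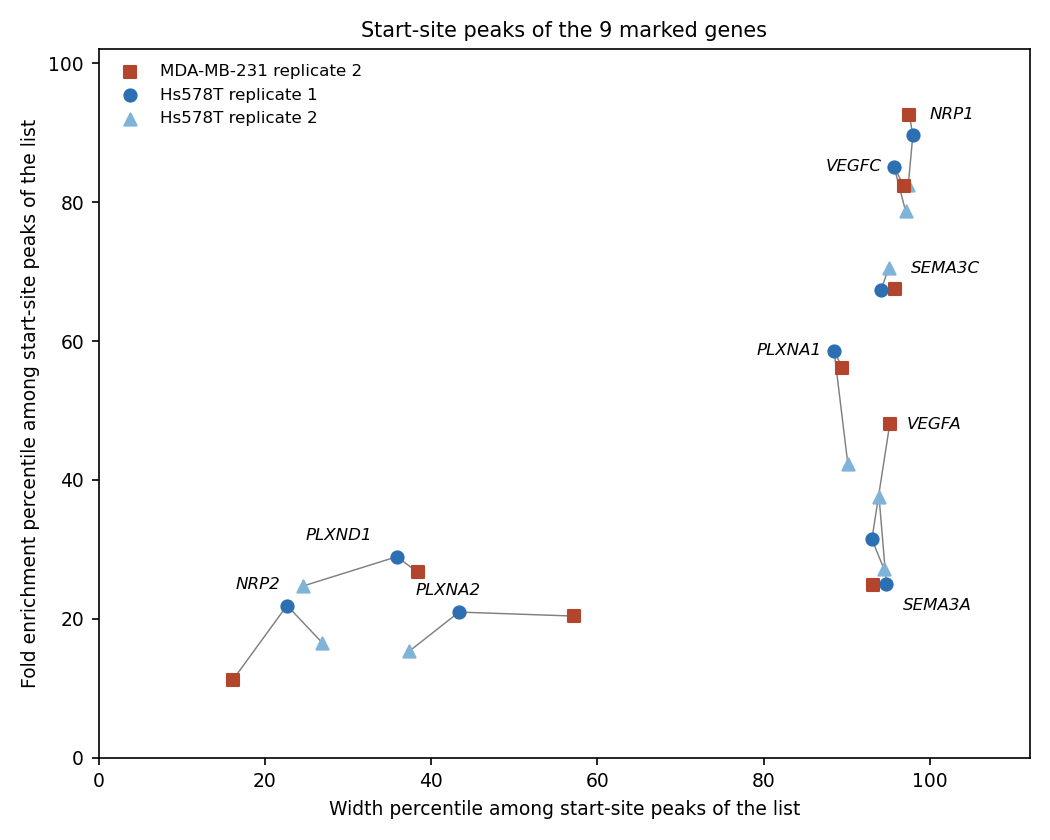
Each symbol is the start-site peak of 1 gene in 1 list, with its width percentile (horizontal) and fold enrichment percentile (vertical) among the start-site peaks of that list. Lines join the 3 lists of a gene. NRP1 and VEGFC sit at the top right, SEMA3A and VEGFA are wide without being tall, and NRP2, PLXNA2 and PLXND1 are low, with widths from the lower to the middle range.

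NRP1 (ENSG00000099250.18) lies on the minus strand of chr10:33177492-33336262 (hg38) and has 17 exons in its canonical transcript. Its start-site peak was 8356, 10207 and 8163 bp wide, at percentiles 97.5, 97.9 and 97.4. The fold enrichment of that peak was 20.1, 16.9 and 11.5, at percentiles 92.6, 89.6 and 82.5. The peak ran from before the first exon to the start of intron 2, and it was the widest start-site peak of the 10 genes in every large list.

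Most of the marked sequence at NRP1 lay inside the gene. Peaks covered 41.8%, 53.3% and 42.9% of the gene body. The widest stretch, chr10:33246853-33279880, spanned 33.0 kb and took in exons 3 to 6 with the introns between them. Within it 28313, 33024 and 30127 bp were covered, as 3 peaks in MDA-MB-231 replicate 2, 1 in Hs578T replicate 1 and 2 in Hs578T replicate 2. Its highest fold enrichment was 13.9, 12.4 and 11.4. The stretch was thus read as a single block in 1 list and as a broken block in the other 2, with nearly the same outer limits. Further into the gene, regions of 10682 bp in intron 6 and 7029 bp in intron 8 were also called in all 3 lists.

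Outside the gene the region of highest mean enrichment over the 3 lists lay 5′ of NRP1, at −31.1 kb from the start site (chr10:33363226-33368306). Its fold enrichment of 24.3, 18.7 and 18.8 lay at percentiles 98.4, 96.0 and 97.6 of all peaks over 2.5 kb from any start site, called distal here. A neighbour at −43.0 kb reached 14.9, 15.04 and 13.6. On the other side, a region 178 kb from the start site and beyond the last exon reached 20.01, 19.5 and 17.5. The highest enrichment in the NRP1 window was thus outside the gene in each list, whereas the widest stretch was intronic.

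**Figure D2:**
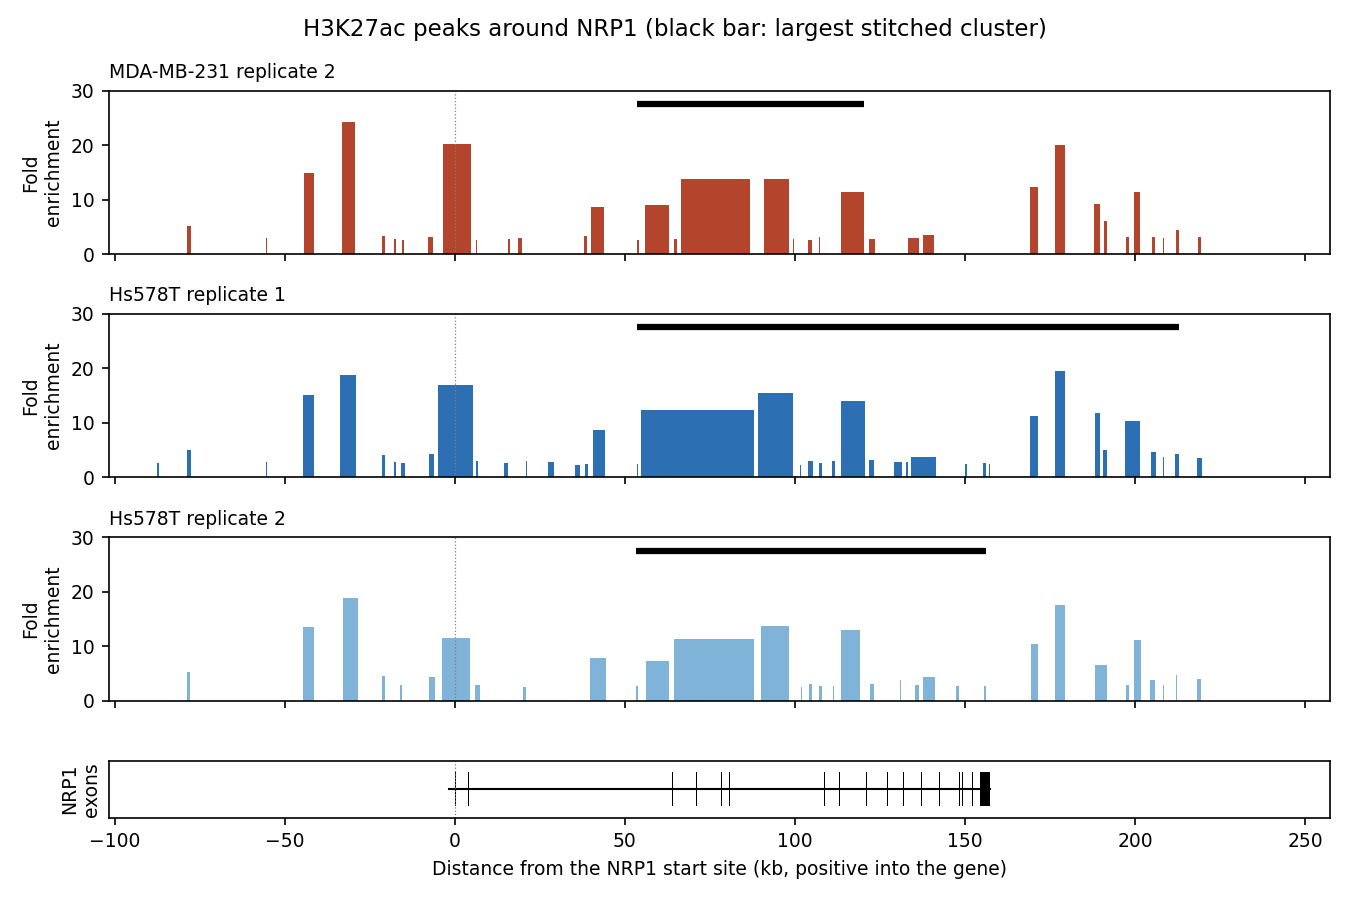
H3K27ac peaks over the NRP1 window in the 3 large lists, as boxes from peak start to peak end with the fold enrichment as height, against the distance from the start site in kb (positive into the gene). The black bar is the largest cluster of distal peaks stitched at the default distance of the super-enhancer caller ROSE, 66.7 kb long in MDA-MB-231 replicate 2, 159 kb in Hs578T replicate 1 and 103 kb in Hs578T replicate 2. Heights are relative to the background of each library and are not to be compared between panels.

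To show what lies under these peaks, 200 bases of the upstream region at −31.1 kb and of the wide intronic stretch were read from hg38, plus strand. Both are centred on a match to the AP-1 motif (TGACTCA or its reverse complement TGAGTCA, in capitals), the one nearest the middle of the part covered in all 3 lists. AP-1 factors of the FOS and JUN families bind many enhancers of mesenchymal cells.
NRP1 upstream region, chr10:33366011-33366210: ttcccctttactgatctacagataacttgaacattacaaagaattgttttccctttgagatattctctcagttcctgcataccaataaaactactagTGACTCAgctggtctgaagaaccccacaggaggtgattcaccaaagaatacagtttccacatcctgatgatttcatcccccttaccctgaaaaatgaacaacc
NRP1 intronic stretch, chr10:33259114-33259313: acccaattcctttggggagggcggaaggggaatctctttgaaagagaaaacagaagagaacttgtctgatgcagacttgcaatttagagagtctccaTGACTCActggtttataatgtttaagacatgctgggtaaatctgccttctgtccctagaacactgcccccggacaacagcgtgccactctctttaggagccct
The shared part of the upstream region held 1 match in 3580 bp, and the shared part of the intronic stretch, taken from the widest peak of each list, held 7 in 20432 bp. That is 0.343 matches per kb in the shared part of the intronic stretch. Over the whole merged length of the 23939 distal regions called in all 3 lists it was 0.433 per kb, which is not the same measure. A match is a description of the letters and not a measured site.

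NRP2 (ENSG00000118257.17, plus strand, chr2:205681990-205798133) showed a different picture from NRP1. It encodes the neuropilin best known for binding SEMA3F and VEGFC. Its start-site peak was 966, 1195 and 1214 bp wide. The fold enrichment there was 4.47, 5.08 and 4.13, at percentiles 11.2, 21.9 and 16.6. NRP2 thus had the lowest start-site percentile of the 9 marked genes in MDA-MB-231 replicate 2. Higher enrichment was found in intron 2, at 24.4 kb from the start site, with 12.48, 9.80 and 9.29. No peak lay in the 100 kb beyond its 3′ end in any list.

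The plexins of the set were each marked, but not in the same way. PLXNA1 (ENSG00000114554.12, plus strand, chr3:126982693-127037389), a signalling partner of both neuropilins, had start-site peaks of 4329, 4492 and 4439 bp. Their fold enrichment was 10.0, 9.26 and 6.15, near the middle of each list (percentiles 56.1, 58.6 and 42.3). A far stronger region lay at −70.7 kb (chr3:126906696-126918182), with fold enrichment of 38.7, 34.5 and 22.4. These values lay at percentiles 99.9, 99.7 and 98.8 of distal peaks, and this was the strongest region in any of the 10 windows. No other protein-coding start site lies in the PLXNA1 window. Peaks alone do not say which gene such a region acts on.
PLXNA1 upstream region, chr3:126911491-126911690: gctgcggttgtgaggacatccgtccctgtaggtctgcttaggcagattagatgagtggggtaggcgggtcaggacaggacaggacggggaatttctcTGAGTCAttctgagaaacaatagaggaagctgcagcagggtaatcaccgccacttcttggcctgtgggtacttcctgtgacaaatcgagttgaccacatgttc
The 200 bases are from the plus strand of hg38 and are centred on the AP-1 match (capitals) nearest the middle of the shared 7330 bp, which held 2 matches.

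PLXNA2 (ENSG00000076356.7, minus strand, chr1:208022242-208244384) had a weak start-site peak followed by stronger intronic ones. The start-site fold enrichment was 5.52, 4.99 and 4.04 (percentiles 20.4, 21.0 and 15.3), over 2007, 1712 and 1467 bp. In intron 1, at 23.5 kb from the start site, it was 14.4, 16.8 and 16.7. In intron 3, a region at 35.6 kb gave 15.8, 15.2 and 12.4. No peak lay in PLXNA2 beyond intron 4 in any list, and 2 regions beyond its 3′ end were called in all 3.

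PLXND1 (ENSG00000004399.13, minus strand, chr3:129555214-129606676), a plexin of vessel patterning that can bind SEMA3E without a neuropilin, had start-site peaks of 1516, 1527 and 1153 bp. Their fold enrichment was 6.26, 5.79 and 4.75 (percentiles 26.7, 29.0 and 24.8). The strongest region was again distal, at −19.1 kb, with 13.6, 11.9 and 9.92.

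KDR (ENSG00000128052.10, minus strand, chr4:55078481-55125595) encodes the main signalling receptor for VEGFA on endothelial cells. No peak overlapped the start site or any part of the gene body in any list. Instead, 3 regions lay upstream at −44.5, −49.6 and −57.9 kb, and each was called in all 3 large lists. The middle region (chr4:55171727-55178638) had fold enrichment of 15.7, 21.3 and 18.3, at percentiles 93.2, 97.5 and 97.3 of distal peaks. These 3 regions made up the whole covered length of the KDR window, 11421, 11869 and 12152 bp. An unmarked gene thus sat beside strongly marked sequence in every large list.
KDR upstream region, chr4:55173708-55173907: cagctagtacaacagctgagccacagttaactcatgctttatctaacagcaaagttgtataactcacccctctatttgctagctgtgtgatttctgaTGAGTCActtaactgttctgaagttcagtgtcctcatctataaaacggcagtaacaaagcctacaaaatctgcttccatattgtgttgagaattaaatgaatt
It is shown as above, from the plus strand of hg38, and the shared 6134 bp held 3 AP-1 matches.

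The 250 bases before the start site of KDR are shown beside those of 2 marked genes, VEGFC with a tall peak and PLXND1 with a weak one, each in the direction of its gene (minus strand, RefSeq table of GRCh38.p14). Capitals mark the GC box, GGGCGG or its reverse complement CCGCCC on either strand, including overlapping matches.
KDR, chr4:55125596-55125845: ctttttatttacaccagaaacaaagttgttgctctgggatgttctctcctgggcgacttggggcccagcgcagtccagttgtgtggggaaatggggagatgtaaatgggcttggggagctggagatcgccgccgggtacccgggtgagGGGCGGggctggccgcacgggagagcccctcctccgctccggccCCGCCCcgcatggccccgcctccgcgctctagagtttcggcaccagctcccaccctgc
VEGFC, chr4:176792923-176793172: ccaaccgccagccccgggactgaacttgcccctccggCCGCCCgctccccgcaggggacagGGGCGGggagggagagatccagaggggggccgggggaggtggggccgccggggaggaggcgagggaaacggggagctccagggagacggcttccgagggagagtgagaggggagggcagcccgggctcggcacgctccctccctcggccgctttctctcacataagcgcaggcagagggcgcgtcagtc
PLXND1, chr3:129606677-129606926: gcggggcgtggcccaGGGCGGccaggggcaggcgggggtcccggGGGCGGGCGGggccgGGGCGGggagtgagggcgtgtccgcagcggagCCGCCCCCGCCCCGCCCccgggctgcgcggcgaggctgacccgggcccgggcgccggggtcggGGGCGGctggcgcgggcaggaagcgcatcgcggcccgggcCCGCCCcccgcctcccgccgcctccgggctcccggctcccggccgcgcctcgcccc
KDR held 17 CpG dinucleotides and 2 GC boxes at 65.2% GC. VEGFC held 22 CpG and 2 GC boxes at 74.0% GC, and PLXND1 held 41 CpG and 9 GC boxes at 88.8% GC. The GC content of KDR was the lowest of the 7 members found in the table and still above the median of 58.4% over 34961 promoters. The other members found were NRP2, PLXNA1, PLXNA2 and SEMA3C, and NRP1, SEMA3A and VEGFA were not matched. All 7 held at least 1 GC box, against 42.7% of all promoters of the same length, and none of the 7 held TATAAA (read on the gene's strand), which 6.80% of all promoters did. KDR thus had GC boxes like the marked members and the fewest CpG of the 7.

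Among the ligands, SEMA3A (ENSG00000075213.11, minus strand, chr7:83955777-84492724), the repellent ligand of NRP1 and the A-type plexins, had start-site peaks that were wide but low. They were 5380, 6729 and 5603 bp wide (percentiles 93.2, 94.7 and 93.9). Their fold enrichment of 6.03, 5.40 and 5.74 lay at percentiles 24.9, 25.1 and 37.5. The highest mean enrichment at SEMA3A was at −218 kb from the canonical start, inside the annotated gene but before that transcript, with 15.9, 17.5 and 14.9. In intron 5 a region of 7620 bp was called in all 3 lists.

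SEMA3C (ENSG00000075223.14, minus strand, chr7:80742538-80922359), a class 3 ligand with roles in heart and vessel development, had start-site peaks of 6633, 6427 and 6169 bp. Their fold enrichment was 11.9, 10.6 and 9.26, at percentiles 67.6, 67.4 and 70.4. A region at −23.5 kb reached 24.0, 23.9 and 20.8, percentile 98.4 of distal peaks in all 3 lists. Beyond the 3′ end, a region 196 kb from the start site reached 24.7, 19.7 and 16.1. SEMA3C was therefore flanked by strong regions on either side, with lower ones in its introns.
SEMA3C upstream region, chr7:80942259-80942458: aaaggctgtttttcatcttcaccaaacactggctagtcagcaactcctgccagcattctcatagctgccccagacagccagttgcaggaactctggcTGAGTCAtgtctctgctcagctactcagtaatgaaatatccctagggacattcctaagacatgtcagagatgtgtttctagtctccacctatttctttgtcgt
The plus strand of hg38 is shown with the AP-1 match in capitals, and the shared 5015 bp held 2 matches.

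VEGFA (ENSG00000112715.26, plus strand, chr6:43770184-43786487), the principal ligand of KDR, had a start-site peak that began 558, 508 and 602 bp before the start and reached 5645, 5332 and 5317 bp into the gene. At 6204, 5841 and 5920 bp it was wide (percentiles 95.2, 93.0 and 94.5). Its fold enrichment of 8.94, 6.03 and 4.93 lay at percentiles 48.0, 31.5 and 27.2. It was the only peak in the gene body and covered 34.8%, 32.9% and 32.8% of it. The tallest peak of the VEGFA window was at the start site of another gene, MRPS18A, and the strongest region without a start site, at −66.4 kb, gave 7.91, 6.27 and 7.06. That was the lowest such value of the 10 genes.

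VEGFC (ENSG00000150630.4, minus strand, chr4:176683538-176792922), a lymphatic growth factor that binds NRP2 and some of the VEGF receptors, had start-site peaks of 7526, 7453 and 7760 bp. Their fold enrichment was 15.4, 14.99 and 10.8, at percentiles 82.3, 85.1 and 78.7, next to NRP1. Distal regions lay at −46.7 kb, with 10.5, 12.6 and 10.7, and at −92.7 kb, with 15.1, 14.8 and 16.0. The farther region was 9328 bp long in all. VEGFC was the ligand with the largest covered share of its window.

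The covered share of each window, the gene body with 100 kb on either side, was largest at NRP1. There 93954, 118635 and 97680 bp were covered (Hs578T mean 108158 ± 14817 bp, SD, n = 2), or 26.2%, 33.1% and 27.2% of the window. Ranked by this share among 19970 genes, NRP1 stood at place 135, 72 and 135. VEGFC followed with 34704, 40154 and 35881 bp, or 11.2%, 13.0% and 11.6%. PLXNA1 came next with 26400, 30611 and 28438 bp, or 10.4%, 12.02% and 11.2%. VEGFC lay above PLXNA1 in each of the 3 lists, although their ranges over lists overlapped.

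PLXND1 had 21978, 22944 and 22415 bp covered, or 8.74%, 9.12% and 8.91%. SEMA3C had 30579, 30787 and 29507 bp, or 8.05%, 8.11% and 7.77%. These 2 genes did not overlap each other in share. PLXNA2 had 27538, 28758 and 24669 bp covered, or 6.52%, 6.81% and 5.84%. VEGFA had 13941, 14215 and 11985 bp, or 6.45%, 6.57% and 5.54%. PLXNA2 lay above VEGFA in each list, with overlapping ranges.

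The lowest shares were those of NRP2, SEMA3A and KDR. NRP2 had 15052, 16958 and 16373 bp, or 4.76%, 5.36% and 5.18%. SEMA3A, with the longest window, had 37630, 36626 and 35617 bp, or 5.11%, 4.97% and 4.83%. KDR had 4.62%, 4.80% and 4.92%. NRP2 lay above KDR in each list, and the place of SEMA3A among them changed from list to list. All 10 genes lay above the median share of protein-coding genes, 3.96%, 4.37% and 4.002%, in the 3 lists. The median of the 9 genes other than NRP1 was 6.52%, 6.81% and 5.84%. The window of a long gene holds less of its neighbours than that of a short one, which was not corrected for.

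**Figure D3:**
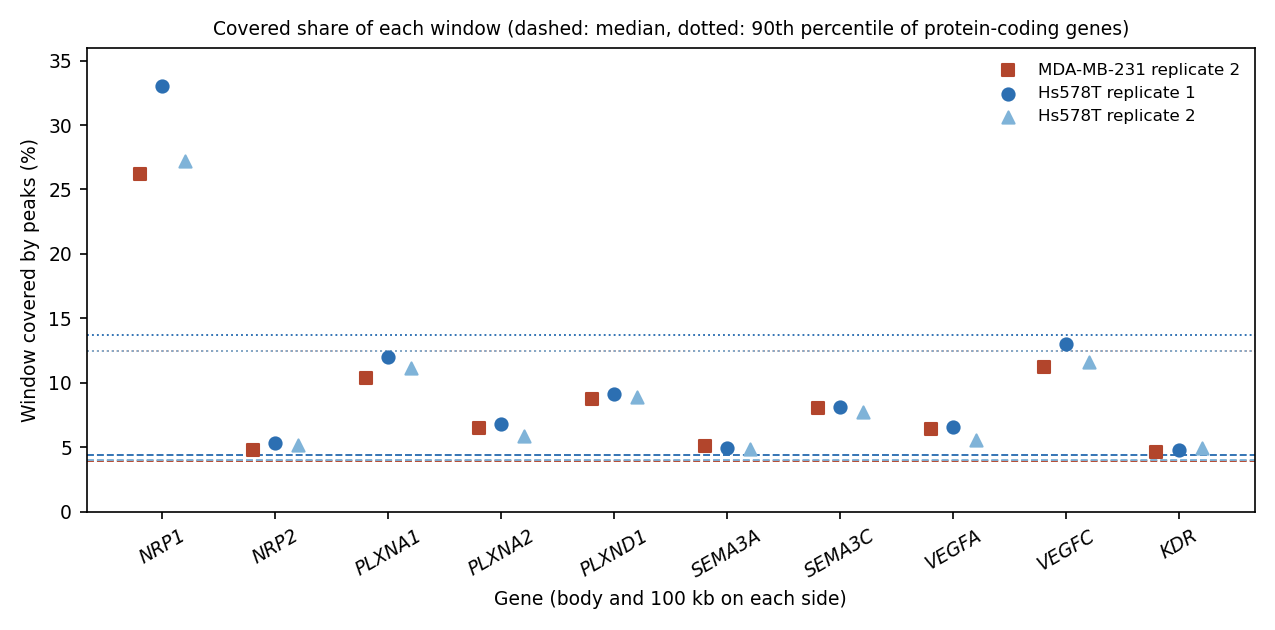
Percentage of each gene window (gene body and 100 kb on either side) covered by peaks, 1 symbol per list. Dashed lines mark the median and dotted lines the 90th percentile of 19970 protein-coding genes in the list of that colour, so that NRP1 lies above the dotted lines in all 3 lists, VEGFC and PLXNA1 lie just under them, and NRP2, SEMA3A and KDR lie close to the dashed ones.

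Between labels, 1 large list stood against 2, and no test was made. By the indices above, the large MDA-MB-231 list overlapped the Hs578T lists about as much as these overlapped each other. The covered length in MDA-MB-231 replicate 2 was below both Hs578T lists at 6 genes (NRP1, NRP2, PLXNA1, PLXND1, VEGFC and KDR), between them at 3 (PLXNA2, SEMA3C and VEGFA) and above both at 1 (SEMA3A). Its distance from the Hs578T mean exceeded the gap between the Hs578T lists at 5 genes, at 4 of them downward. At SEMA3A its 37630 bp stood above 36122 ± 713 bp (SD, n = 2) in Hs578T. Its difference from the Hs578T mean was −1613.5 bp at NRP2 (Hs578T gap 585 bp) and −3124.5 bp at PLXNA1 (gap 2173 bp). At PLXND1 the difference was −701.5 bp (gap 529 bp), and at KDR −589.5 bp (gap 283 bp). These 4 genes thus had less covered sequence in the large MDA-MB-231 list, by small amounts. All chromosomes together did too, with 81.8 Mb covered against 90.7 Mb in Hs578T replicate 1 and 83.9 Mb in Hs578T replicate 2. The counts of this paragraph were not made over all protein-coding genes, so they are not read as a trait of these 10 genes. At NRP1 its 93954 bp lay below the Hs578T mean by less than the 20955 bp between the Hs578T lists themselves. Hs578T replicate 1, the list with the most peaks, exceeded replicate 2 by 1.21 times at NRP1. Depth was not known for any list, and its part in these differences was not tested.

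Peaks of the 3 large lists merged into 146 regions in the 10 windows. Of these, 115 (78.8%) were called in all 3 lists, against 74.8% of 50576 regions over all chromosomes. NRP1 held 42 regions, of which 26 (61.9%) were called in all 3, 8 in 2 and 8 in 1. Each of the other 9 genes had between 3 and 16 regions, and 89 of their 104 were called in all 3. NRP1 thus contributed 16 of the 31 regions missing from some list.

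The regions missing from some list were weak and short. The highest fold enrichment and the merged length of a region tend to rise with the number of lists that call it. Part of this contrast therefore follows from the counting. Their highest fold enrichment ranged from 2.35 to 4.23 with a median of 2.83, and their median length was 661 bp. Regions called in all 3 lists had a median of 5.42 and a median length of 2002 bp. At NRP1 the 16 regions missing from some list had fold enrichment of at most 3.75, and 6 of them lay in intron 2, 7 between intron 6 and exon 17 and 3 upstream of the gene. Among all 146, 130 touched no start site, 9 lay at the start site of the member, 1 at a second start site of PLXND1 (48.0 kb into the gene) and 6 at the start site of another gene. By midpoint, 74 regions were intronic, 6 exonic, 45 upstream and 21 downstream.

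**Figure D4:**
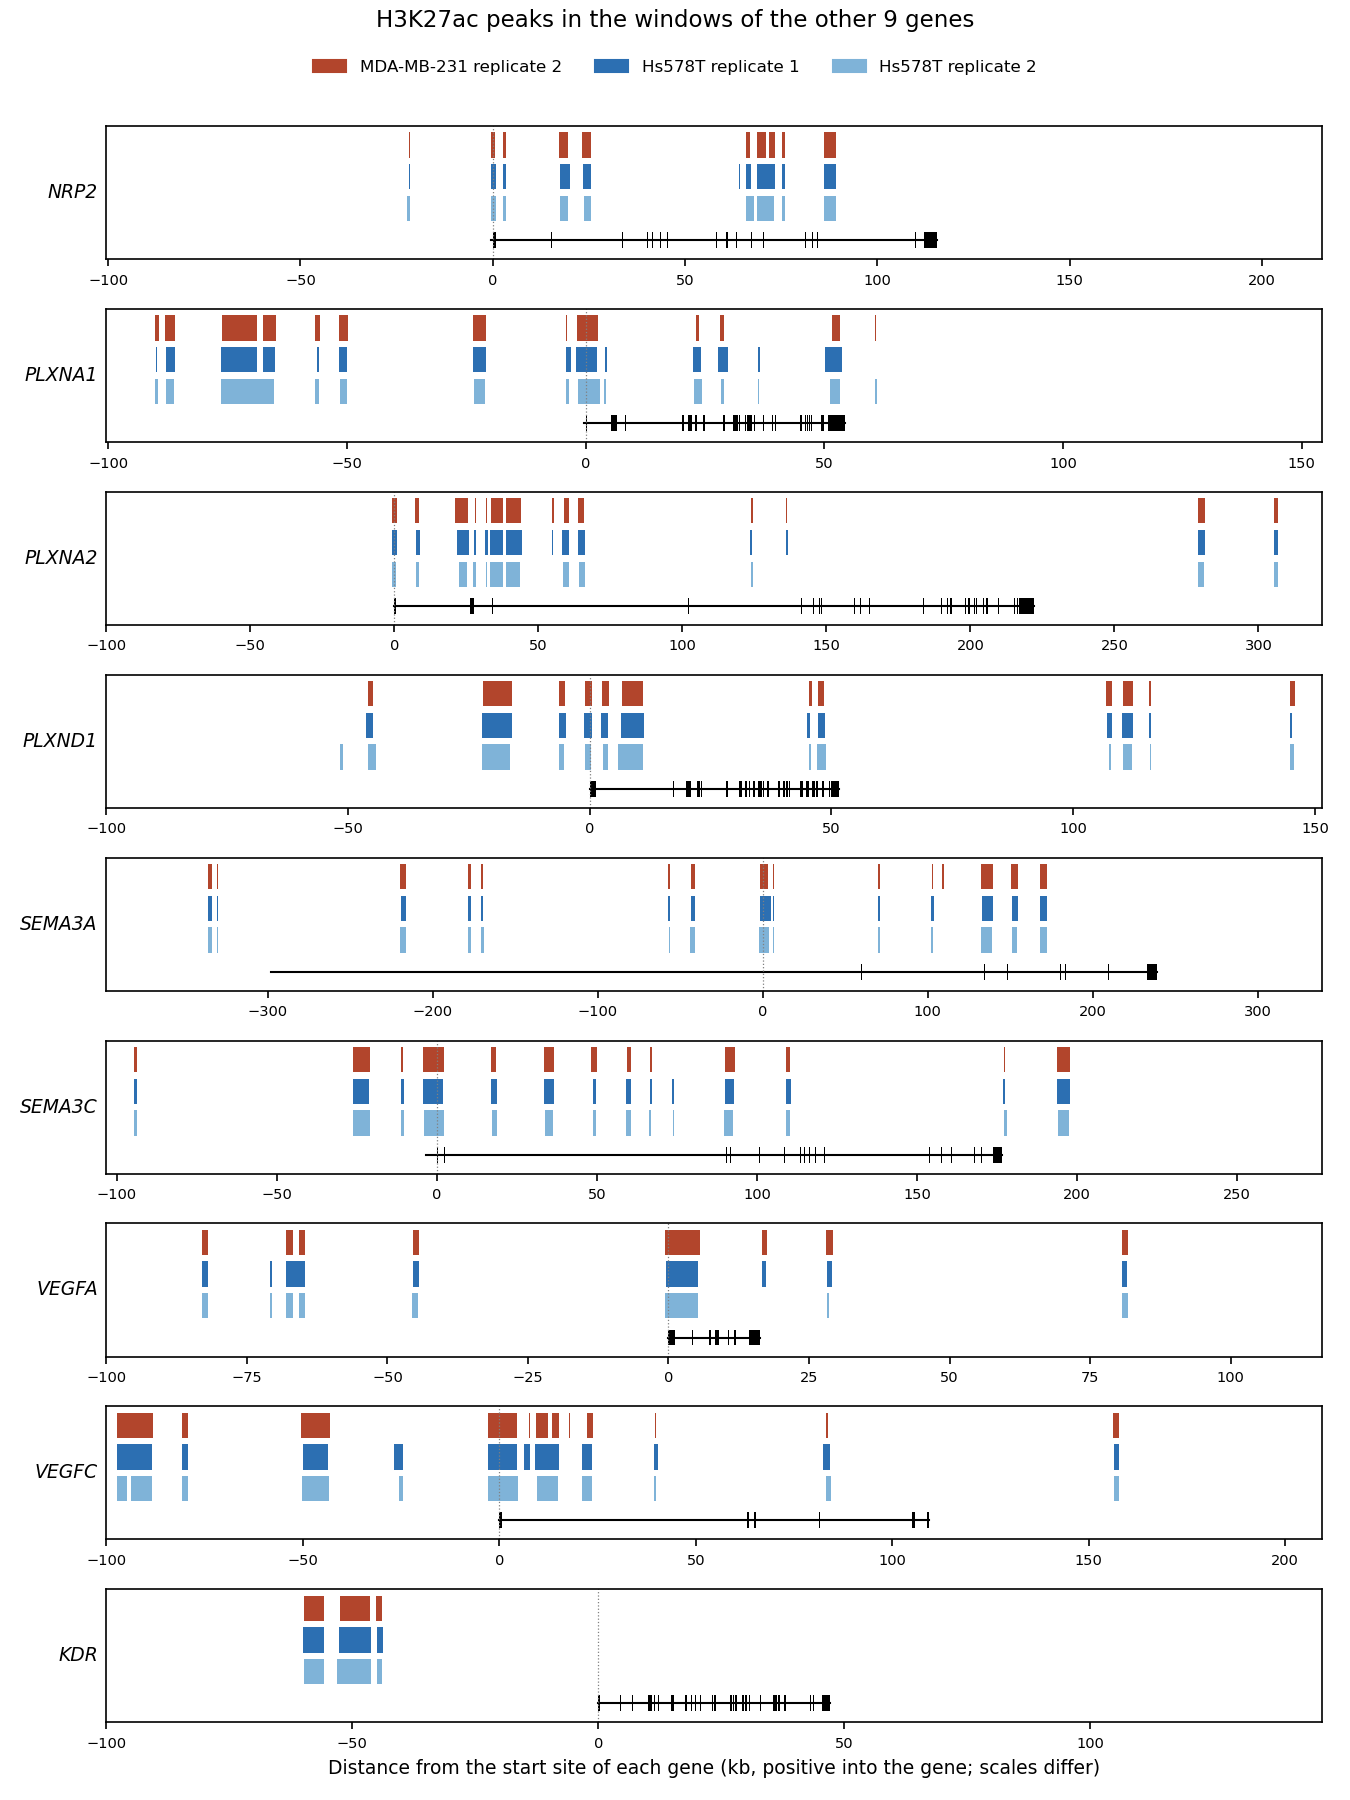
Positions of H3K27ac peaks in the windows of the other 9 genes, as boxes against the distance from each start site in kb (positive into the gene, with a scale of its own in each panel), 1 colour per list, with exons in black. The same regions recur in all 3 lists at most places, and KDR has 3 upstream regions and none at its start site or in its gene body.

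The length of the stitched cluster at NRP1 differed more between lists than the bases covered. Stitching distal peaks at that distance gave a largest cluster of 66706 bp with 9 peaks in MDA-MB-231 replicate 2. In Hs578T replicate 1 it was 159348 bp with 22 peaks, and in Hs578T replicate 2 it was 102919 bp with 14 peaks. Covered bases within these clusters were 44759, 81614 and 53503 bp, at rank 9, 1 and 6 of all clusters in their lists. Over 1 fixed span, that of the Hs578T clusters together, distal peaks covered 64249, 81614 and 67521 bp, a narrower range. The largest gap between distal peaks in this span was 28137 bp in MDA-MB-231 replicate 2, 11664 bp in Hs578T replicate 1 and 13023 bp in Hs578T replicate 2. Gaps over the stitching distance thus numbered 2, 0 and 1. Over a fixed span the 3 lists lay closer together than their cluster lengths.

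Genes were compared with NRP1 by how near their windows came to its covered length over the 3 large lists, by the summed absolute log2 ratio. Among the 3 nearest were ENSG00000255872, with 93725, 101422 and 96357 bp, and DDX47, an RNA helicase gene, with 91903, 108648 and 104028 bp (summed log2 ratio 0.25 each). As at NRP1, the lowest value of each was in MDA-MB-231 replicate 2 and the highest in Hs578T replicate 1. The bases covered over all chromosomes had the same order, and these genes were picked for nearness to NRP1 in each list. The shared order is therefore no separate result.

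AP-1 letters were counted in the central 500 bases of the distal regions called in all 3 lists, on both strands. Of 95 such regions in the 10 windows, 30 (31.6%) held a match, against 33.3% of 23939 regions genome-wide. At NRP1 it was 3 of 21, at NRP2 6 of 8, at SEMA3A 6 of 12 and at SEMA3C 5 of 12. The 3 regions of KDR held none in the central 500 bases, although the strongest held matches elsewhere. The stretches printed above were picked to hold a match. The shared parts of their upstream regions held 0.279 (NRP1), 0.273 (PLXNA1), 0.399 (SEMA3C) and 0.489 (KDR) matches per kb. Each of these rates rests on at most 3 matches. The genome-wide 0.433 was counted over whole merged regions and not over shared parts, so it is only a rough guide. The shared part of the strongest distal region of PLXND1 held none. The share over all 10 windows was thus near that of the whole genome, and the counts per gene are small.

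A list of 37 other genes of the pathway served as a wider view. Of these, 21, 21 and 19 had a start-site peak in the 3 large lists, 19 in all 3 and 15 in none. This share was near that of all protein-coding genes given above, 58.1% in MDA-MB-231 replicate 2. In MDA-MB-231 replicate 1 none of the 37 was marked.

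Of the 6 other plexins, PLXNA3, PLXNB2 and PLXNB3 were marked in all 3 lists. PLXNB2 had a fold enrichment of 8.72, 7.36 and 6.58 and PLXNB3 of 10.5, 11.5 and 7.99. PLXNB1 was marked in MDA-MB-231 replicate 2 alone, at 3.91 over 573 bp, and PLXNA4 and PLXNC1 in none. Of the 5 other class 3 semaphorins, SEMA3B, SEMA3D and SEMA3E were marked in all 3 lists, and SEMA3F and SEMA3G in none. SEMA3E, the ligand of PLXND1, had 5.88, 3.65 and 3.14. Of the 13 other semaphorins, 6 were marked in all 3 lists, among them SEMA4C (6.81, 5.83 and 4.63) and SEMA7A (4.85, 4.08 and 3.25). The start-site peaks of these ligands were thus lower than those of SEMA3C and VEGFC, the 2 tallest ligand members, in the same list. SEMA4C stood above SEMA3A in MDA-MB-231 replicate 2 (SEMA3A 6.03) and Hs578T replicate 1 (5.40), and below it in Hs578T replicate 2 (5.74).

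Of the 5 other VEGF ligands and receptors, VEGFB alone was marked, at 5.45, 4.58 and 3.72. The receptors FLT1 and FLT4 and the ligands PGF and VEGFD had no start-site peak in any list. FLT1, a decoy receptor for VEGFA, had 961, 1114 and 1147 bp covered in its whole window. Including KDR, none of the 3 VEGF receptor genes was marked. Of the 8 adaptors, effectors and the protease, 6 were marked in all 3 lists, including GIPC1, which binds the neuropilin tail, and FURIN, which cleaves semaphorins and VEGFC. DPYSL2 was marked in 2 lists and FES in none.

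Marker genes were read in the same way as a description of the labelled cells. The sets were not chosen to tell the 2 lines apart, so the reading does not check which line a list came from. Of 6 mesenchymal markers, 5 were marked in all 3 lists, with AXL at 29.8, 24.2 and 18.1, and CDH2 was not. Among all protein-coding genes, 58.1%, 58.2% and 56.4% were marked in these lists. Of 6 luminal and epithelial markers, EPCAM was marked in MDA-MB-231 replicate 2 and Hs578T replicate 1, and ESR1, PGR, GATA3, FOXA1 and CDH1 in none. Of 6 endothelial markers, which are known to accompany KDR in vessels, 5 had no start-site peak in any list. The exception was PECAM1, with 7148 bp at a fold enrichment of 14.3 in MDA-MB-231 replicate 2, 374 bp at 2.82 in Hs578T replicate 1 and no such peak in Hs578T replicate 2.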

How the data were processed

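H3K27ac ChIP-seq peak lists of 4 libraries, 2 per cell line, were analysed, and groups and replicate numbers came from the sample titles. Per the labels and the study's methods, the authors trimmed reads with Trimmomatic, mapped them to hg38 with Bowtie2, called the peaks of every library with MACS2 relative to input, and took out blacklisted regions using bedtools. Versions and MACS2 settings were not given in the sources used here, and broad mode was inferred from the 9 columns. The deposited values of each peak are its start and end, a score, a fold enrichment (a ratio over local background) and the −log10 p-value and q-value. Read numbers were not used, so depth is unknown, and weak peaks move with depth and with the input library. The washout time follows the labels, whereas the study's own text gives a longer period.

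Chromosomes 1 to 22 and X and the Ensembl canonical transcripts of GENCODE release 44 were used, with Python 3.11.15, numpy 2.4.6, pandas 2.3.3 and matplotlib 3.10.9. Interval counting was tested on simulated data. Start-site peaks overlapped 1 kb on either side of the start, windows were the gene body with 100 kb on either side, distal peaks lay over 2.5 kb from every canonical start site, and clusters were distal peaks stitched at the default distance of ROSE. Peaks of the 3 large lists that overlapped were merged into regions. Named were all 10 members, genes of a list of 37 pathway genes and 18 markers, the 3 genes nearest to NRP1 in covered length (1 of them is not reported here), and in each window the start-site, strongest and widest peaks. The members and lists were chosen with earlier results of these data known. No test was made: with 2 lists per line the 4 lists split in only 3 ways, and the smallest two-sided p of an exact permutation would be 0.333. Promoters were taken from a RefSeq table, 7 of 10 members matched, and AP-1 matches were read from hg38. Values were recomputed with other windows, start sites, stitching distances, only the strongest 50% of peaks by score, and without each replicate.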

Additional observations from a re-analysis of the deposited data

How the results depend on the processing

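Values were recomputed for 8 results, and 12 of 48 moved by over 1 SD of the 2 lists of the line (counts: by over 1.5 times). For most of the other 36, staying within the limit says little about stability. With 2 lists, leaving 1 out of a covered length or share always stays within 1 SD, and the SD of MDA-MB-231 exceeds its mean. The counts of marked members were judged by the factor of 1.5 instead. MDA-MB-231 replicate 1 set the mean of its line: leaving out 1 MDA-MB-231 list at a time, the marked members ranged from 0 to 9 (mean 4.5), the covered share of the windows from 0 to 8.97% (mean 4.48%), the covered bases at NRP1 from 0 to 93954 bp and the largest NRP1 cluster from 0 to 44759 bp. The covered share in Hs578T, 9.54 ± 0.746% (SD, n = 2), was 7.004% with the strongest 50% of peaks, 11.4% with 50 kb flanks, 7.94% with 200 kb flanks and 7.77% with distal peaks only. The covered bases at NRP1 in Hs578T became 80541 bp with the strongest 50%, 125814 bp with 200 kb flanks and 90771 bp with distal peaks only. Its largest cluster, 67559 ± 19877 bp of covered bases, became 40769 bp with the strongest 50%, 90261 bp when stitched within 25 kb and 88765 bp when peaks at start sites were stitched too. Leaving out 1 Hs578T list gave 53503 to 81614 bp for that cluster, 97680 to 118635 bp for the window of NRP1, 9.01 to 10.1% for the covered share and 9 marked members in either case. With the strongest 50%, Hs578T had 6.5 marked members on average. Other start-site definitions left the counts of marked members as they were. Stitched within 5 kb it held 50654 bp, within 1 SD of the main value. No paired analysis was possible because the values come from no test. With 1 large list labelled MDA-MB-231, line and library cannot be told apart, and the depth that limits weak peaks was unknown.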
